A study of Homo sapiens with 6 samples.

Results

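The genes described here encode voltage-gated ion channels and the channel subunits that share their naming scheme, as they were expressed in H7 human embryonic stem cells (hESCs) with and without S6K1. They were chosen by symbol and by a minimum count, with earlier results of these data known. The symbols were the potassium channel stems KCNA to KCNV, with KCNMA1 and KCNMB, the calcium channel stems CACNA1, CACNA2D, CACNB and CACNG, the sodium channel stem SCN, and the stem HCN. Of 61155 genes in the count table, 132 symbols matched, and the 82 with a summed count of at least 60 over the 6 libraries were taken as members. That minimum was set on the summed level and did not use the direction of the difference between genotypes, but near it a gene could enter through 1 group alone, as 3 weakly expressed members did. The label is wider than the biology in one respect. The symbols also take in 7 inward rectifier (KCNJ), 7 tandem-pore (KCNK) and 3 SK and IK (KCNN) potassium channels, none of which opens through a voltage sensor, and the other 65 members belong to families of voltage-gated channels.

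Voltage-gated channels are membrane proteins whose pore opens when charged segments of the protein move in the electric field across the membrane. Sodium and calcium channels let positive charge in and potassium channels let it out, so that together they set the resting potential and, in neurons, heart and muscle, shape the action potential. Most pores are joined by auxiliary subunits that set where the channel sits, how fast it opens and closes, and how much of it reaches the surface. Pluripotent stem cells do not fire action potentials, but they carry potassium, calcium and sodium channel transcripts and have a resting potential.

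H7 is an established line of hESCs, grown here without feeders on Matrigel in TeSR-E8 medium. Total RNA was taken from 3 WT and 3 S6K1-/- samples and sequenced as poly(A)-selected, stranded libraries. S6K1-/- cells had been made by transfecting a Cas9 plasmid with guides against a pair of exons of RPS6KB1, the gene of the kinase S6K1, sorting the transfected cells and growing single clones. The labels carry the words week 5 and knockdown, whereas the methods describe undifferentiated knockout cells. The study describes the transcriptome of its knockout cells as that of 1 clone, so genotype and clone cannot be told apart in this design. No source states that the 3 libraries of a group came from separate cultures, so the p-values measure the spread between these libraries, which may be technical.

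The libraries held between 21896698 and 24473013 counts, of which mitochondrial genes took 8.54 to 9.74%. RPS6KB1 had 831, 791 and 777 counts in WT 1 to 3 and 464, 464 and 438 in S6K1-/- 1 to 3, so that its level fell from 33.3 ± 0.994 to 19.8 ± 0.371 CPM (counts per 1000000 counts of the library, SD, n = 3; log2 fold change −0.75, edgeR adjusted p = 2.52e-07). A gene missing only some exons can still yield reads elsewhere. The pluripotency genes POU5F1, NANOG and SOX2 stood at log2 fold changes of −0.04, 0.05 and −0.04, with none past an adjusted p of 0.05. Of the 10 pluripotency markers listed, which include these 3, 1 fell at 0.001 (10%, against 2.54% of all genes tested). At 0.05, 3 of the 10 were lower and 1 higher (30 and 10%, against 8.31 and 5.47%).

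Of the members that the comparison turned on, 4 are shown by the 250 bases before their RefSeq start. Counts were per gene, so which start these cells used was not determined. The windows of KCNMA1, KCNJ6 and KCNH5 lie inside the annotated genes, whose upstream ends are at 77638369, 38121345 and 63102037. Both strands were searched for 6 short motifs. These were the E-box CACGTG, the cyclic AMP response element TGACGTCA, the TATA box TATAAA, the GC box GGGCGG, the CCAAT box CCAAT and the left part of the RE1 element TTCAGCACC, to which the neuronal gene repressor REST binds. The windows run 5′ to 3′ on the gene's strand in GRCh38.p14, with matches in capitals. KCNK6 lies at chr19:38319595-38319844 on the plus strand and KCNMA1 at chr10:77637809-77638058 on the minus strand. KCNJ6 lies at chr21:37916458-37916707 on the minus strand and KCNH5 at chr14:63045459-63045708 on the minus strand.
KCNK6: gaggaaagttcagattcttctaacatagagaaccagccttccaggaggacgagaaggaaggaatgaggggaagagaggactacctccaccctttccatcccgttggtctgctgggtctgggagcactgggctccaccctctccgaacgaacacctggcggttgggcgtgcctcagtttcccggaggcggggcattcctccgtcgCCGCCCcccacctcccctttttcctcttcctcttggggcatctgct
KCNMA1: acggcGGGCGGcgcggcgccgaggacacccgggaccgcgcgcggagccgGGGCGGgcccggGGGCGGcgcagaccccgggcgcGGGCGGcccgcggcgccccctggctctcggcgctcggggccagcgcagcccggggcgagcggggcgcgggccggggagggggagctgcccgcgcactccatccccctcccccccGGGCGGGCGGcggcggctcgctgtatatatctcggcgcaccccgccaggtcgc
KCNJ6: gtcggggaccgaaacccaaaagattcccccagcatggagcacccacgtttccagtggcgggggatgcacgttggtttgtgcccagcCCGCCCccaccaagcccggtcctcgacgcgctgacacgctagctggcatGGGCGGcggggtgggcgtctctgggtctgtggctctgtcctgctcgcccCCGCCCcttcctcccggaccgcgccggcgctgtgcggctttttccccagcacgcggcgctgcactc
KCNH5: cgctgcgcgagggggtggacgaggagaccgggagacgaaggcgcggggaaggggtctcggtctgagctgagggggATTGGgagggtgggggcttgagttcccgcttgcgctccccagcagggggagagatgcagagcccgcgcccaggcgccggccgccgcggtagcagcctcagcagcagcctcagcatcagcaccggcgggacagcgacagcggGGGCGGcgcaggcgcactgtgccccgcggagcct
The windows of KCNK6, KCNMA1, KCNJ6 and KCNH5 held 1, 6, 3 and 1 GC boxes, some of them overlapping, and KCNH5 held 1 CCAAT box. KCNMA1 was the richest of them, with 85.6% G and C and 46 CpG dinucleotides, whereas KCNK6 had 59.6% and 11. RefSeq windows were matched for 55 of the 82 members, KCNK15 not among them. Their median GC content was 68.8%, against 58.0% for all 27305 windows, and 13 members that were lower in S6K1-/- hESCs had a median of 64.0%. A GC box was present in 70.9% of the members' windows and 42.3% of all windows, a TATA box in 5.45% and 11.1%, a CCAAT box in 30.9% and 33.0%, and an E-box in 7.27% and 6.49%. The cyclic AMP response element was present in 1.82% of the members' windows and 1.77% of all, and the RE1 part in 1.82% and 0.3%, the member being KCNH6. A match of letters is a description of the window and not a binding site.

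Channel transcripts made up between 0.0824 and 0.0891% of all counts. Their summed level was 882.6, 838.7 and 880 CPM in WT hESCs and 834.3, 871.7 and 832 CPM in S6K1-/- hESCs, and the groups overlapped. Most of this came from few genes: the 10 highest members held 50.9% of the summed level. By count, these were CACNA1H, CACNA2D1, KCNMB4, CACNG7, CACNA2D2, KCNK5, SCN8A, KCNG1, KCNS3 and KCNC4.

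Levels were compared between genes per kilobase of exon. The highest was CACNG7, a gamma subunit that also serves AMPA receptors, at 16.3 CPM per kb in WT and 16.8 in S6K1-/- hESCs. KCNK5, an alkali-sensitive background potassium channel, stood at 10.8 and 10.1, KCNS3, a silent modifier of Kv2 channels, at 10.7 and 10.7, and KCNMB4, an auxiliary subunit of the BK channel, at 9.74 and 11.5 CPM per kb. Among calcium channel pores, the T-type gene CACNA1H led with 7.04 and 7.79 CPM per kb. It was joined by the alpha2delta subunits CACNA2D2 at 7.01 and 7.32 and CACNA2D1 at 5.57 and 6.23. HCN4, the main pacemaker channel of the sinus node, stood at 3.45 and 3.22, and KCNH2, the ERG channel of cardiac repolarization, at 2.37 and 2.33 CPM per kb. The neuronal sodium channel gene SCN8A stood at 1.86 and 2.27 CPM per kb. In other families the highest members were KCND2, an A-type potassium channel (1.86 in WT), KCNT2, a sodium-activated potassium channel (1.78), KCNN1, a small-conductance calcium-activated channel (2.1), the inward rectifier KCNJ4 (1.36), the beta subunit CACNB1 (1.10) and the accessory subunit KCNE5 (3.0 CPM per kb). With the length of the canonical transcript in place of the union of exons, KCNC4, KCNG1, KCNN2 and KCNJ11 led their families instead of KCND2, KCNS3, KCNN1 and KCNJ4.

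**Figure D1:**
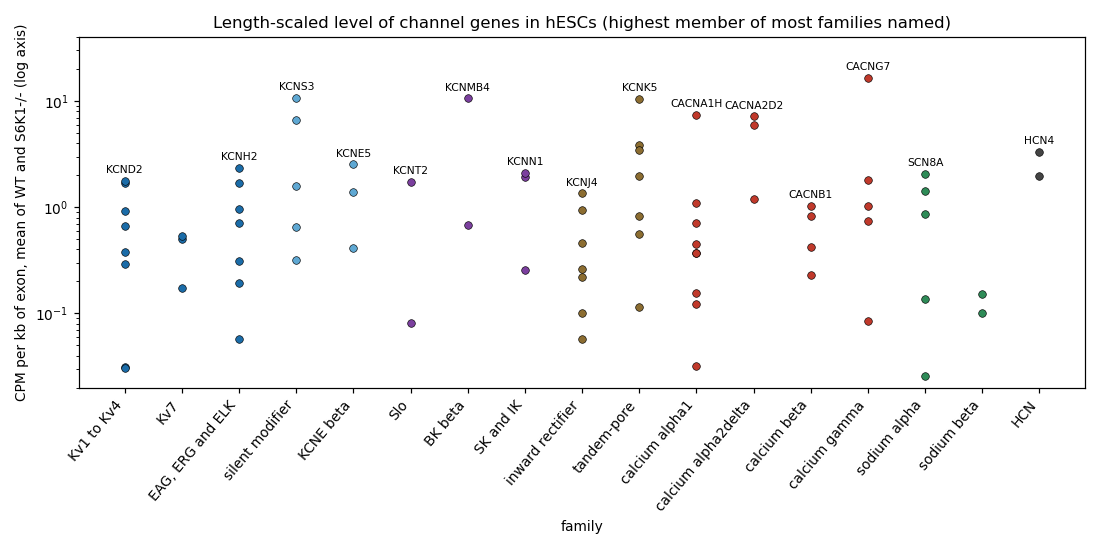
Level of 77 of the 82 channel genes by family, as CPM per kilobase of exon on a log axis, averaged over the means of the WT and S6K1-/- groups; each point is 1 gene and the highest gene of most families is named. CACNG7, KCNK5, KCNS3 and KCNMB4 stand above the rest, and several families span more than a factor of 10.

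Below the minimum stood 50 matching symbols, of which 8 had 0 counts in every library, which allows up to 3 counts in each: KCNE4, KCNC2, KCNA4, KCNA6, HCN3, KCNG4, KCNK18 and SCN10A. The members just inside the minimum were KCNE2, KCNA2 and KCND3, with 62, 83 and 83 summed counts, and those just outside were KCNT1, KCNV2 and KCNMB1, with 59, 57 and 55. Summed counts of the members ran from 62 to 9030 with a median of 737. All 82 passed the filter on low counts before testing. For 3 of them, KCNH5, SCN2A and KCNE2, the summed count reached 60 only through the higher group, so that their differences are not independent of the minimum.

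The comparison of S6K1-/- with WT hESCs asked which of these channel genes changed when S6K1 was lost. At the adjusted p of 0.001 used in the study, 3 of 82 members fell (3.66%, against 2.54% of all 19521 genes tested) and 0 rose (against 1.42%). By an unadjusted p under 0.05 in edgeR's quasi-likelihood test, 8 members were higher and 27 lower, and the share of all genes was not counted. At 0.001 DESeq2 called 0 members higher and 2 lower (339 and 505 of 19521 genes). Without a filter on low counts, edgeR called 3 members higher and 8 lower (591 and 982 of 37733 genes). The 3 that fell in the main fit were KCNK6, KCNMA1 and KCNK15, of which KCNMA1 is the one from a voltage-gated family. At a wider adjusted p of 0.05, 17 members were lower (20.7%, against 8.31% of all genes) and 5 were higher (6.1%, against 5.47%), and 60 did not pass. Without KCNH5, SCN2A and KCNE2 the counts were 16 and 4 of 79, and DESeq2 put them at 8 and 3 of all 82 (9.76 and 3.66%, against 5.6 and 4.22% of all genes by DESeq2). The count of 17 became 8 without WT 1 (9.76%, against 6.15% of all genes in the same fit), 11 without WT 3 (13.4%, against 5.95%) and 9 without S6K1-/- 1 (11%, against 5.89%). The count of 5 became 3 (3.66%) without WT 2, S6K1-/- 2 or S6K1-/- 3, against 4.51, 3.98 and 4.55% of all genes. In bulk samples, fewer cells of a type and less RNA per cell cannot be told apart.

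The sizes were modest. The median log2 fold change of the 82 members was −0.11, with quartiles at −0.45 and 0.06, against −0.00 for all genes tested. Values below 0 were found for 57 members (69.5%, against 50.6% of all genes). In 27 members every S6K1-/- library lay below every WT library (32.9%, against 16.7%), and in 8 every S6K1-/- library lay above (9.76%, against 14%). Differences beyond 0.5 in size on the log2 scale were found for 17 members below and 4 above 0, together 21, while 9.88% of all genes went beyond it. The lower values sat mainly among weakly expressed genes. Of the 41 members under 5 CPM, 30 were below 0 and 13 were lower at an adjusted p of 0.05 (31.7%, against 8.93% of the 7074 genes tested under 5 CPM). The 13 depended on single libraries and on the test. Among those that passed 0.05 neither without WT 1 nor by DESeq2 were SCN3B, CACNA1I, CACNA1D, SCN2A and KCNH6. By level, the medians were −0.54 for 22 members under 2 CPM, −0.32 for 19 between 2 and 5, −0.12 for 25 between 5 and 15 and −0.01 for 16 above 15 CPM. All genes in the same ranges had medians of −0.07, −0.05, −0.02 and 0.02. A standard error above 0.25 was found for 13 members, all of them weakly expressed.

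**Figure D2:**
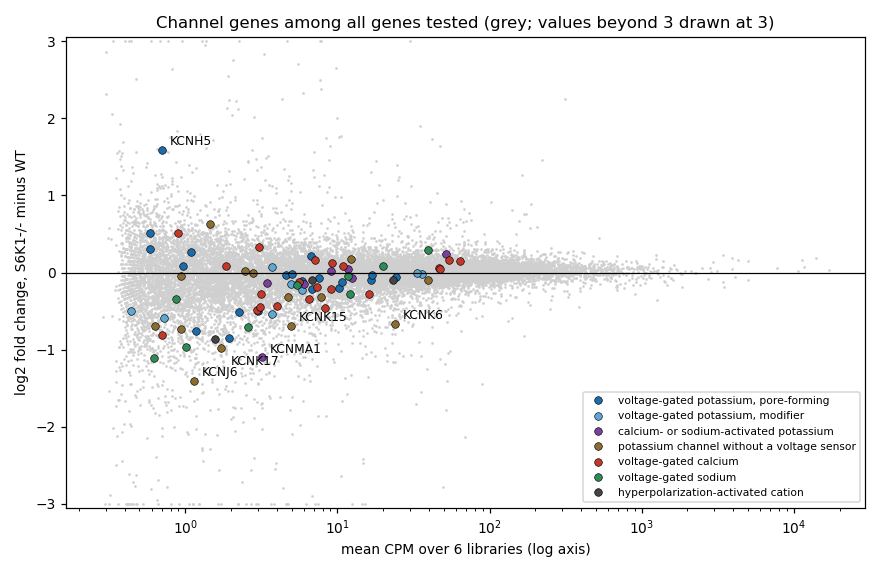
Log2 fold change of S6K1-/- over WT hESCs against the mean CPM over the 6 libraries on a log axis; grey points are all 19521 genes tested and coloured points are the 82 channel genes by class. Channel genes under 5 CPM spread mostly below 0, KCNH5 stands apart above it, and those above 15 CPM lie close to the line except KCNK6.

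**Figure D3:**
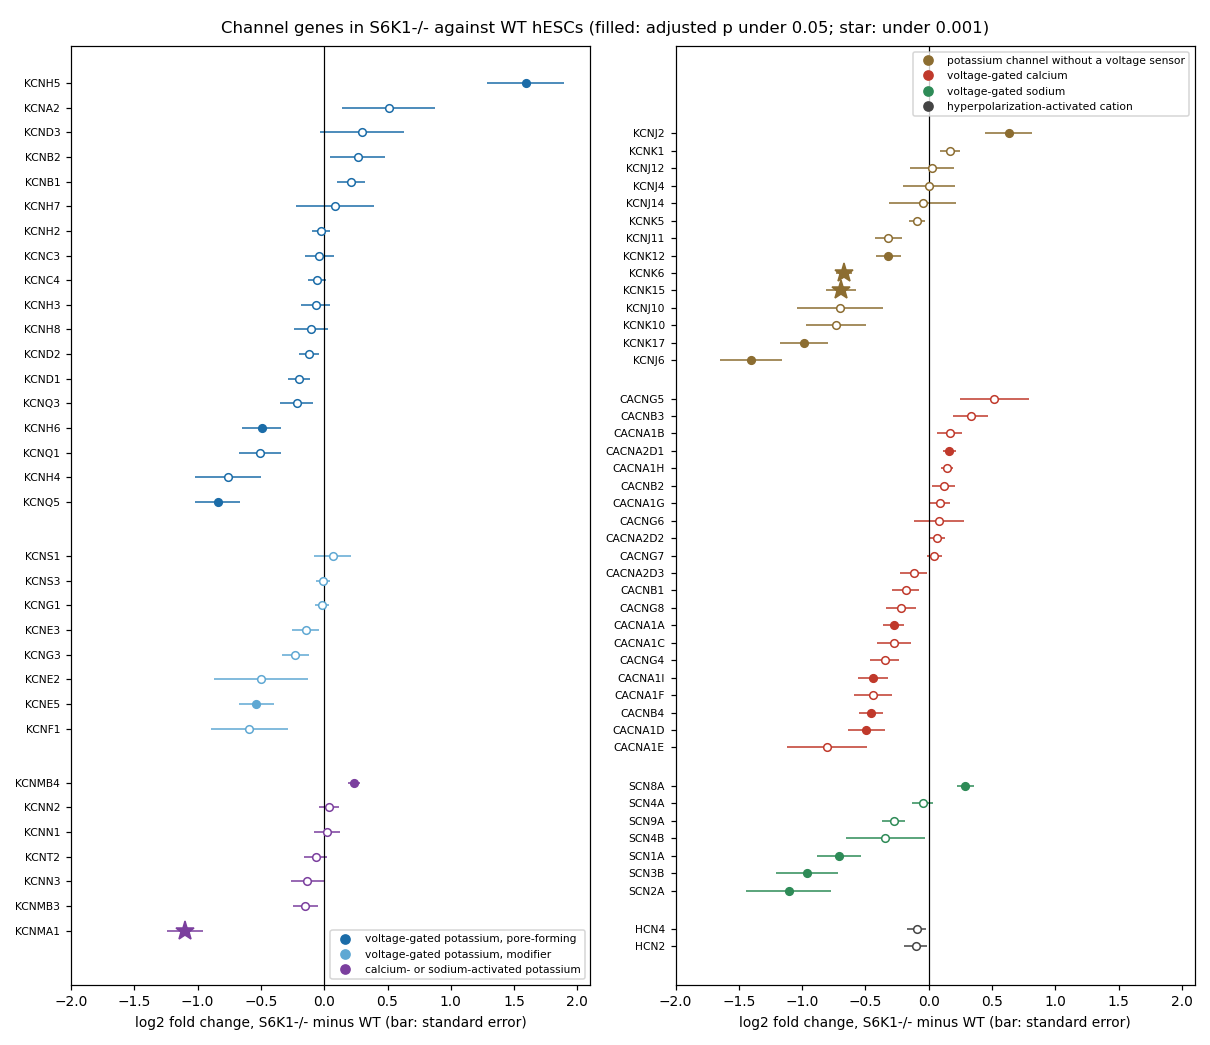
Log2 fold change of 77 of the 82 channel genes, S6K1-/- minus WT, by class, with bars of 1 standard error; filled circles mark an adjusted p under 0.05 and stars under 0.001 (edgeR). The 3 stars, KCNMA1, KCNK6 and KCNK15, all lie below 0.

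The tandem-pore potassium channels, which pass the background current that holds the resting potential negative, held 2 of the 3 members that fell. Of their 15 symbols 7 were members, 6 of these were below 0, and the family's median was −0.67. Its summed level was 100.1 CPM in WT and 82.3 CPM in S6K1-/- hESCs. KCNK6, also called TWIK-2, lies at chr19:38319845-38332076 on the plus strand of GRCh38, the build of every position given here. It had 723, 751 and 656 counts in WT 1 to 3 and 414, 479 and 393 in S6K1-/- 1 to 3. The groups stood well apart, and its level fell from 29.5 ± 1.17 to 18.6 ± 1.27 CPM (SD, n = 3), to 63.0% of WT (log2 fold change −0.67, SE 0.0655, edgeR adjusted p = 4.41e-06). No exon of another gene overlaps KCNK6, whereas 39 of the 82 members share exon bases with another gene, 7 of them on the same strand, KCNJ6 and CACNB4 included. The expressed genes on either side, YIF1B and CATSPERG, stood at −0.14 and −0.75, with edgeR adjusted p of 0.140 and 0.0896.

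KCNK15, a TASK-related subunit, lies at chr20:44745865-44752313 on the plus strand. It had 148, 150 and 146 counts in WT and 92, 79 and 92 in S6K1-/- hESCs, with no overlap between the groups. Its level fell from 6.16 ± 0.113 to 3.81 ± 0.472 CPM (SD, n = 3; log2 fold change −0.69, SE 0.117, edgeR adjusted p = 7.93e-04). This call sat close to the threshold: without any 1 library the edgeR adjusted p lay between 0.00160 and 0.00542, and DESeq2 gave 0.00123. KCNK15 shares 505 bases with RIMS4, a presynaptic scaffold gene on the opposite strand, and whether reads were counted by strand is not given in the sources used here. RIMS4 had 929, 937 and 894 counts in WT and 570, 579 and 519 in S6K1-/- hESCs (log2 fold change −0.67, edgeR adjusted p = 3.41e-07). Its part in the KCNK15 result was not tested.

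KCNK17, an alkali-activated channel, had 58, 50 and 57 counts in WT and 31, 29 and 20 in S6K1-/- hESCs. It was at 50.6% of WT (log2 fold change −0.98, SE 0.191, edgeR adjusted p = 0.00248), again without overlap. KCNK5 lies 69526 bases from it on chromosome 6 and is close to it in function, but stood at 40.8 and 38.2 CPM (log2 fold change −0.10, edgeR adjusted p = 0.373). KCNK1, or TWIK-1, a close relative of KCNK6, was at 11.5 and 12.9 CPM (0.17, edgeR adjusted p = 0.181). KCNK12, which forms a silent channel, was lower at −0.32 (edgeR adjusted p = 0.0423), and the stretch-activated KCNK10 had −0.73 without passing (edgeR adjusted p = 0.0560).

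Among inward rectifiers, which pass potassium more easily into the cell than out, 5 of 7 members were below 0 and the median was −0.05. KCNJ6, or GIRK2, is opened by G proteins after receptor activation. It had 37, 36 and 46 counts in WT and 18, 11 and 14 in S6K1-/- hESCs, so that the lowest WT library held at least 2 times the counts of every S6K1-/- library. Its log2 fold change was −1.40 (SE 0.246, edgeR adjusted p = 0.00113), just outside the stricter threshold. KCNJ2, which holds the resting potential of heart and muscle cells, went the other way, with 29, 27 and 26 counts in WT and 43, 43 and 36 in S6K1-/- hESCs (0.63, SE 0.184, edgeR adjusted p = 0.0334). That call was lost without any 1 library, the adjusted p from edgeR then lying between 0.0512 and 0.102. KCNJ12 has a near-identical copy in the genome, KCNJ18, so its level is uncertain.

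Potassium channels opened by calcium or sodium held the largest difference of the 3 that passed the stricter threshold. KCNMA1 encodes the pore of the BK channel, which opens with both depolarization and calcium. The gene lies at chr10:76869601-77638369 on the minus strand. It had 95, 105 and 115 counts in WT and 47, 49 and 45 in S6K1-/- hESCs. The lowest WT library was far above the highest S6K1-/- library, and the level fell from 4.38 ± 0.532 to 2.04 ± 0.0336 CPM (SD, n = 3), to 46.7% of WT (log2 fold change −1.10, SE 0.143, edgeR adjusted p = 7.70e-05). KCNMA1-AS1, which overlaps exons of KCNMA1 on the opposite strand, had 8, 8 and 5 counts against 4, 3 and 1, and its part was not tested. KCNMB4, the BK beta subunit typical of neurons, had 1096, 1215 and 1104 counts in WT and 1264, 1334 and 1252 in S6K1-/- hESCs, and was higher by 0.23 (SE 0.0491, edgeR adjusted p = 0.00444). Pore and auxiliary subunit thus stood on opposite sides of WT, at 46.7 and 118% of it. The other beta subunit, KCNMB3, stood at −0.15 (edgeR adjusted p = 0.383). KCNT2 at −0.07 and the small-conductance channels KCNN1, KCNN2 and KCNN3 at 0.02, 0.04 and −0.13 did not pass.

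Pore-forming voltage-gated potassium channels differed little as a class: 14 of 20 were below 0, with a median of −0.06. The 8 members of the families Kv1 to Kv4, which include the delayed rectifiers and A-type channels, ran from −0.20 to 0.51, and none passed an adjusted p of 0.05. All 5 members of the Kv7 (KCNQ) family, which carries the M current, were below 0. KCNQ5 had 69, 56 and 55 counts in WT and 28, 35 and 33 in S6K1-/- hESCs (log2 fold change −0.84, SE 0.178, edgeR adjusted p = 0.00467), and its groups did not overlap. KCNQ1, which repolarizes heart muscle together with KCNE1, was at −0.51 (edgeR adjusted p = 0.0542), and KCNQ3 at −0.22 did not pass either.

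The EAG, ERG and ELK channels (KCNH) held both directions. KCNH5, or EAG2, lies at chr14:62699464-63102037 on the minus strand and had 9, 5 and 11 counts in WT and 25, 26 and 22 in S6K1-/- hESCs. Every S6K1-/- library held at least 2 times the counts of every WT library. The log2 fold change of 1.59 was the highest of the 82 members (SE 0.303, edgeR adjusted p = 0.00214), on a level of only 0.349 ± 0.136 and 1.05 ± 0.0388 CPM (SD, n = 3). KCNH6, an ERG channel, was lower at −0.49 (edgeR adjusted p = 0.0443), and KCNH4, an ELK channel, had −0.76 without passing (edgeR adjusted p = 0.0707). KCNH2, the most abundant of them, stood at −0.03 (edgeR adjusted p = 0.857). Of 8 modifier genes 7 were below 0, with a median of −0.19. KCNE5, a small accessory subunit that inhibits KCNQ1, had 96, 123 and 100 counts in WT and 66, 83 and 62 in S6K1-/- hESCs (−0.54, SE 0.140, edgeR adjusted p = 0.0182). ACSL4, which overlaps KCNE5 on the same strand, stood at −0.13 (edgeR adjusted p = 0.0529), and its part was not tested.

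Of 21 calcium channel genes 11 were below 0 and the median was −0.12. The alpha1 subunits, which form the pore, numbered 9. CACNA1H had 1578, 1430 and 1373 counts in WT and 1545, 1656 and 1448 in S6K1-/- hESCs, and its 0.15 did not pass (edgeR adjusted p = 0.0616). The alpha1 genes that were lower were the T-type CACNA1I (−0.44, edgeR adjusted p = 0.0246), the L-type CACNA1D (−0.49, 0.0336) and the P/Q-type CACNA1A (−0.28, 0.0379), the last of which had 458, 425 and 394 counts against 346, 387 and 280. CACNB4, a beta subunit that brings the pore to the membrane, had 218, 220 and 250 counts in WT and 163, 167 and 151 in S6K1-/- hESCs (−0.46, SE 0.0958, edgeR adjusted p = 0.00446). The other beta subunits, CACNB1, CACNB2 and CACNB3, stood at −0.18, 0.12 and 0.33, and none passed. CACNA2D1, the alpha2delta subunit to which gabapentin binds, was higher by 0.16 (edgeR adjusted p = 0.0483), with 1196, 1246 and 1238 counts against 1266, 1371 and 1308. The gamma subunits CACNG4 to CACNG8 ran from −0.35 to 0.52, with none past 0.05.

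Of 9 sodium channel genes 7 were below 0, with a median of −0.28. SCN8A, the most abundant, had 921, 762 and 870 counts in WT and 1024, 1061 and 910 in S6K1-/- hESCs. As CPM the groups did not overlap, and it was higher by 0.29 (SE 0.0680, edgeR adjusted p = 0.00982). SCN1A had 93, 79 and 59 counts in WT and 46, 44 and 45 in S6K1-/- hESCs and was lower by 0.71 in size (−0.71, SE 0.173, edgeR adjusted p = 0.0121). Both are pores of neuronal sodium current, SCN8A being the main one at the axon initial segment of excitatory neurons and SCN1A being prominent in inhibitory neurons. SCN2A, which lies with SCN1A and SCN9A in a cluster of sodium channel genes on chromosome 2, had 21, 14 and 26 counts against 7, 12 and 8 (−1.11, SE 0.338, edgeR adjusted p = 0.0412). SCN9A, a channel of pain-sensing neurons, stood at −0.28 (edgeR adjusted p = 0.0512). The muscle channel SCN4A at −0.05 did not pass. SCN1A-AS1, which overlaps both SCN1A and SCN9A on the opposite strand, stood at 0.23 (edgeR adjusted p = 0.356). Among the beta subunits, SCN3B had 37, 28 and 31 counts in WT and 12, 17 and 18 in S6K1-/- hESCs (−0.96, SE 0.246, edgeR adjusted p = 0.0160), and SCN4B had −0.34 without passing.

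Of the HCN channels, which open on hyperpolarization and carry the pacemaker current, the abundant HCN4 and HCN2 stood at −0.10 and −0.10 (edgeR adjusted p = 0.471 and 0.535).

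**Figure D4:**
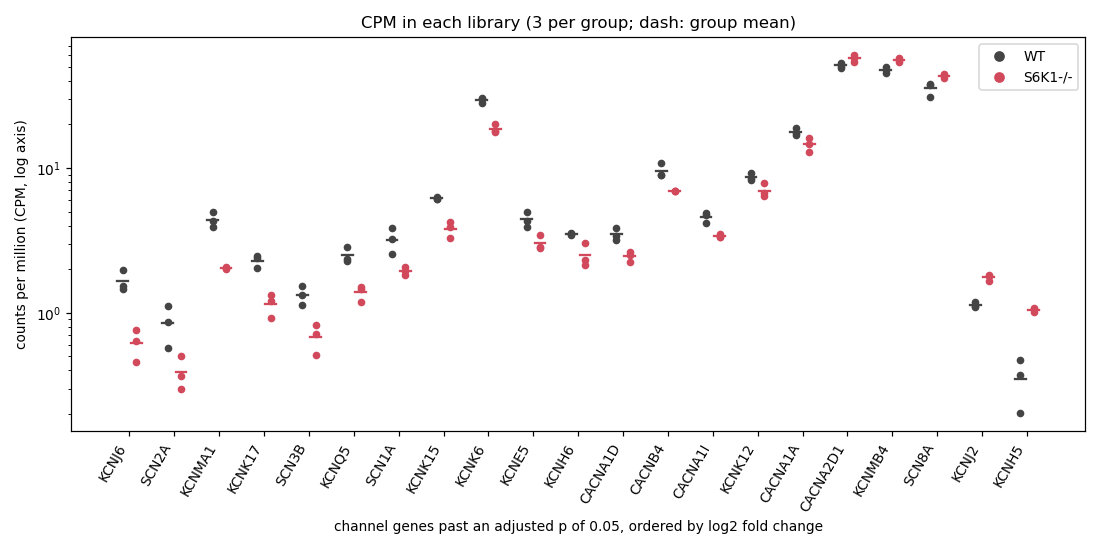
CPM in each of the 3 WT and 3 S6K1-/- libraries, on a log axis, for 21 of the 22 channel genes past an adjusted p of 0.05, ordered by log2 fold change; points are libraries and dashes are group means. In all 21 the groups do not overlap, with 16 lower genes to the left and CACNA2D1, KCNMB4, SCN8A, KCNJ2 and KCNH5 to the right.

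The calls at 0.05 differed in how far they rested on single libraries. KCNK6 and KCNMA1 passed 0.001 in each of the 6 fits that left out 1 library. KCNK15, KCNJ6, KCNH5, KCNK17, KCNMB4, CACNB4, KCNQ5 and SCN8A passed 0.05 in all 6. SCN1A passed in 5, and SCN3B and KCNE5 in 3. CACNA1I and CACNA2D1 passed in 2, CACNA1D, CACNA1A, SCN2A, KCNK12 and KCNH6 in 1, and KCNJ2 in 0 of the 6. In each of these fits all 22 genes kept the sign of their difference.

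Genes that work with the channels were taken as lists by family, and each share is read against that of all genes tested, of which 2.54% were lower and 1.42% higher at 0.001, and 8.31% lower and 5.47% higher at 0.05. Of 28 tested channel partners and regulators, 4 fell at 0.001 (14.3%) and 0 rose, 5 were lower (17.9%) and 4 higher (14.3%) at 0.05, and the median was −0.04. The 4 were FGF13, a partner of sodium channels (−0.39, edgeR adjusted p = 2.78e-05), DPP6, a partner of A-type potassium channels (−0.82, 3.40e-05), STAC, a partner of L-type calcium channels (−0.98, 4.25e-05), and SPTBN4, a spectrin that anchors channels at the axon initial segment (−1.17, 3.17e-04). STAC2, a relative of STAC, was at −0.72 (edgeR adjusted p = 0.00117). REST, the repressor of neuronal genes, had 2338, 2261 and 2249 counts in WT and 2380, 2419 and 2147 in S6K1-/- hESCs (0.08, edgeR adjusted p = 0.219).

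Of 35 other cation channel genes, 1 fell at 0.001 (2.86%, near the share of all genes) and 0 rose, and 7 were lower (20%) and 2 higher (5.71%) at 0.05, with a median of −0.10. TRPC4, a receptor-operated cation channel, had 128, 95 and 122 counts in WT and 18, 25 and 19 in S6K1-/- hESCs and fell by 2.41 on the log2 scale (edgeR adjusted p = 3.73e-07). FAM155A, a subunit of the sodium leak channel, the stretch-activated channel PIEZO1 and TRPC5 were at −0.48, −0.24 and −0.78, and the calcium release channel ITPR2 was at 0.26, all past 0.05. Of 23 ion pumps and exchangers, 2 fell at 0.001 (8.7%) and 0 rose, and 4 were lower (17.4%) and 2 higher (8.7%) at 0.05, with a median of −0.01. SLC8A3, a sodium-calcium exchanger, had 27, 34 and 28 counts in WT and 3, 4 and 0 in S6K1-/- hESCs (edgeR adjusted p = 4.33e-05). The related exchanger SLC8A2 was at −1.12 (edgeR adjusted p = 0.00216). The calcium pumps ATP2B1 and ATP2B4 were higher, at 0.25 and 0.21 (edgeR adjusted p = 0.00456 and 0.0111).

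**Figure D5:**
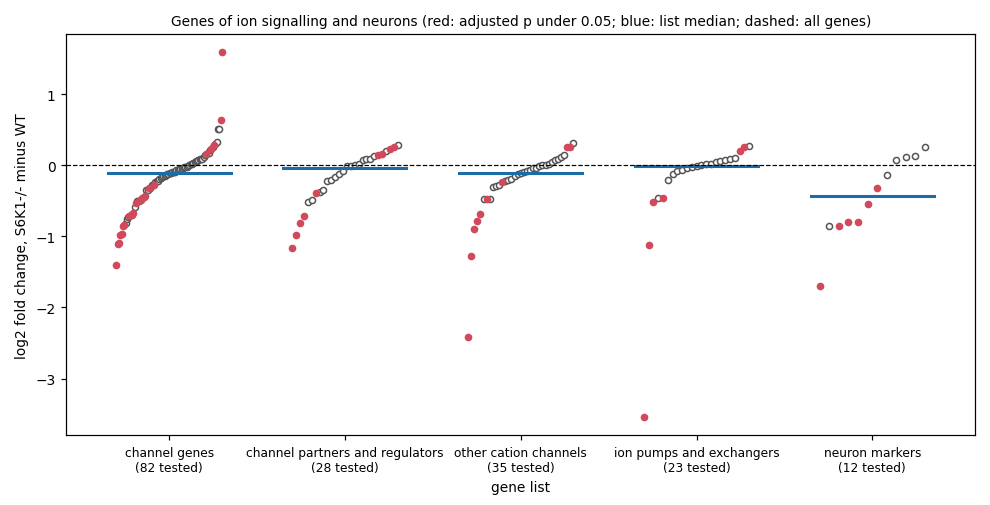
Log2 fold change, S6K1-/- minus WT, of each tested gene in the channel genes, the 3 lists of related ion signalling genes and the neuron markers; red points passed an adjusted p of 0.05, blue bars are list medians and the dashed line is the median of all genes. The channel genes' median of −0.11 lies near those of the related lists, between −0.10 and −0.01, while that of the neuron markers is −0.43.

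Of 12 neuron markers tested, 2 fell at 0.001, 6 were lower at 0.05 (8.31% of all genes were) and 0 were higher, the other 6 did not pass, and the median was −0.43. Their summed level was 322.8 to 339.4 CPM in WT and 299.1 to 302 CPM in S6K1-/- hESCs, but without STMN2, left out after seeing the data, the sums overlapped, at 274.2 to 290.2 and 283.5 to 286.8 CPM. STMN2 had 1184, 1209 and 1204 counts in WT and 367, 364 and 330 in S6K1-/- hESCs (−1.70, edgeR adjusted p = 1.41e-11), and DCX was at −0.54 (edgeR adjusted p = 4.91e-04). MAP2, SYP, ELAVL3 and RBFOX3 were also lower at 0.05, at −0.85, −0.80, −0.80 and −0.32. The most abundant markers, SYT1, NEFL and NEFM, stood at 71.0, 70.0 and 66.0 CPM in WT and 74.5, 75.7 and 72.6 CPM in S6K1-/- hESCs, with none past 0.05. TUBB3 stood at 0.847 and 1.02 CPM without passing, and ELAVL4 had 12, 12 and 9 counts in WT and 0 in every S6K1-/- library. At 0.05, endoderm markers were lower in 2 of 4 tested (8.352 to 10.94 CPM summed in WT, 4.686 to 5.664 in S6K1-/- hESCs), and neuroectoderm markers higher in 2 of 3. Of 10 pluripotency markers 3 were lower and 1 higher, at summed levels of 6700 to 6894 and 6281 to 6353 CPM. Heart and skeletal muscle markers, another set of excitable cells, passed in 0 of 5 tested, with summed levels of 34.62 to 41.73 and 35.33 to 39.78 CPM. Mesenchyme and neural crest markers were lower in 2 of 4 and amnion and trophoblast markers in 1 of 3. The part of any such cells in the channel gene result was not tested.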

How the data were processed

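Gene counts as deposited were used. The authors trimmed paired reads of 150 bases with Trim Galore 0.6.5, aligned them to GRCh38 with Bowtie2 2.4.5, which does not split reads across introns, and counted them per gene with featureCounts. The tools are named in the submitters' processing notes, and the annotation and strand setting are not given in the sources used here. The authors' DESeq2 1.37.4 comparison, which holds fold changes and p-values of the same groups, was not used.

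Counts were tested in edgeR 4.0.16 (R 4.3.3) with TMM scaling, filterByExpr (minimum count 10) and the quasi-likelihood test of S6K1-/- (n = 3) against WT (n = 3), with Benjamini-Hochberg adjustment over 19521 genes and 2-sided p-values. The study's threshold of 0.001 and a second of 0.05 were used. Standard errors are those of the log2 fold change. CPM used the scaled library size, of which 1 count was worth 0.0407 to 0.0459 CPM. Replicates of a group differed beyond sampling noise (chi-square per degree of freedom 2.24 to 4.54). Scripts were tested on simulated data. Same-numbered libraries had correlations of 0.097, 0.04 and 0.093, against −0.166 to 0.078 for differently numbered ones, and were not treated as pairs.

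The members and lists were chosen with earlier results of these data known. Named were RPS6KB1, members past 0.001, up to 8 more in each direction past 0.05, the highest member of each family per kilobase, 3 members on each side of the summed count of 60, and up to 5 genes of each related list. Values of some genes are not reported here, though counts and medians include them. Other members, neighbours and marker genes were named after their values were seen. Positions, lengths and exon overlaps came from GENCODE on GRCh38, and 250-base windows from RefSeq GRCh38.p14. Alternatives covered scaling, DESeq2 1.42.0, filters, a replicate block, single libraries, thresholds and membership.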

Additional observations from a re-analysis of the deposited data

How the results depend on the processing

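The median log2 fold change of the channel genes stayed below 0 under every alternative run, between −0.14 and −0.08, and the 22 members past 0.05 kept their sign in all 240 alternative values. Of those values 223 kept their side of 0.001, 9 passed it anew and 8, all of KCNK15, lost it. Without a filter on low counts, 8 of 82 members were lower and 3 higher at 0.001, and 982 and 591 of the 37733 genes then tested. At 0.05 the main fit, which kept the filter, gave 17 and 5 members, and 1622 and 1067 of all genes. The fit without the filter gave 20 lower and 6 higher members at 0.05 (24.4 and 7.32%, against 4.99 and 3.54% of all genes). Counted over 65 genes of voltage-gated families only, 1 was lower at 0.001, a share below the 2.54% of all genes. At 0.05, 12 of the 65 were lower and 4 higher, while 8.31 and 5.47% of all genes were. Counted over the 43 members whose exons overlap no other gene, a choice made after seeing the data, 1 was lower at 0.001 (2.33%, against 2.54% of all genes), and 7 were lower (16.3%, against 8.31%) and 3 higher (6.98%, against 5.47%) at 0.05. Without the 3 members that reached the minimum through 1 group, also left out after seeing the data, 3 were lower and 0 higher at 0.001. With DESeq2, 8 were lower and 3 higher at 0.05, counts also added after seeing the data. Leaving out 1 library left 2 to 2 members lower and 0 to 0 higher at 0.001, and 8 to 17 lower and 3 to 4 higher at 0.05. Among all genes it left 313 to 445 lower and 175 to 235 higher at 0.001, with the lowest without S6K1-/- 3 and S6K1-/- 1. These fits had fewer samples.

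With the replicate number as a block, 2 members were lower and 0 higher at 0.001 (KCNK15 adjusted p = 0.00200, edgeR), against 423 and 241 of all genes. At 0.05 the block gave 16 and 4 members (19.5 and 4.88%, against 8.25 and 5.78% of all genes in the same fit). WT 2 correlated best with S6K1-/- 3, so not every library correlated best with its own number.

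KCNH5 and SCN2A gave no value with at least 10 counts in every library. Depth limited the weakly expressed members, since 1 count was worth 0.0407 to 0.0459 CPM and 13 members had standard errors above 0.25, so that members not called may still differ. With 3 libraries of 1 clone, other clones were not analysed here.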
